A study of Homo sapiens with 2 samples.

Results

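The genes described here form the TGF-beta superfamily module of a breast cancer cell line: the TGF-beta, activin and BMP ligands, their receptors, the SMAD proteins, the antagonists and binding proteins, and the ID genes. They were taken as a list of 44 genes, of which 43 had at least 1 probe set that the platform annotation assigns to a single gene, out of 19775 genes so named on the array. BMPR1A, a BMP type I receptor, was not analysed here. The 43 genes had 125 probe sets, 41 with names ending in _s_at and 5 in _x_at, endings that mark probes shared between transcripts or prone to cross-hybridisation. The series holds 1 array of MDA-MB-231 cells treated for 48 h with siRNA against KMO and 1 array of the same line treated for 48 h with a control siRNA. MDA-MB-231 is an established triple-negative breast cancer line, and KMO encodes kynurenine 3-monooxygenase, a mitochondrial enzyme of tryptophan breakdown. The array names in the labels carry strings usual for short hairpin constructs, whereas titles and treatment labels name siRNA, so the construct was not settled. With 1 array per group there was no replicate and no test, and every difference below describes this pair of arrays.

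Ligands of the superfamily bind pairs of type II and type I serine/threonine kinase receptors at the cell surface. The activated type I receptor phosphorylates SMAD2 and SMAD3 in the TGF-beta and activin branch, or SMAD1, SMAD5 and SMAD9 in the BMP branch, and these join SMAD4 to control genes in the nucleus. Secreted antagonists, inhibitory SMADs, ubiquitin ligases and co-repressors limit the signal, and several of these are themselves induced by it. In breast epithelium TGF-beta is known to restrain growth, and in invasive breast cancer cells to favour a mesenchymal state.

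Levels are log2 values from robust multi-array averaging (RMA), so a difference of 1 is 2-fold. They can be compared between arrays for a given probe set but not between probe sets. A probe set or gene is called measured where its mean over both arrays was at least 6, and a gene is represented by its brightest probe set. The targeted gene gave no usable check, since the 3 KMO probe sets stood at 2.92, 2.51 and 2.35 on the KMO siRNA array and at 2.95, 2.37 and 2.11 on the control array. These lay under the median of 18 genes of unrelated tissues, 4.19 and 4.16, of which 17 were under 6. As markers of the line, ESR1 stood at 4.84 and 4.75 and PGR at 2.39 and 2.58, the steroid receptors that triple-negative cancers lack, the KMO siRNA array first in each pair, and both were under the minimum level used here. VIM and CD44, which the line is known to express, passed it at 12.96 and 12.90 and at 11.31 and 11.43. ERBB2, a receptor that triple-negative cancers lack or have low, also passed it, at 7.37 and 7.44. These are levels of single probe sets and are not ranked against each other. In bulk RNA, fewer cells that carry a transcript and less of it per cell cannot be told apart.

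6 of the measured genes differed by at least 1.5-fold: INHBA, FST and PMEPA1 were higher, and INHBB, ID2 and TGFBR3 lower, on the KMO siRNA array. Of the 43 genes, 31 were measured (72.1%, against 45.5% of all named genes), and 58 of the 125 probe sets. Among the 31, 12 were higher and 19 lower, with a median difference of -0.19. Over all 8997 measured genes, 4928 were higher and 3967 lower, with a median of 0.04. At 1.5-fold, 3 members were higher, where the background was 5.19% of all measured genes, and 3 were lower, where it was 5.41%. In either direction that is 19.4% of the members against 10.6% of all measured genes. At 2-fold, 1 member was higher (background 0.856%) and 2 were lower (background 1.39%), in all 9.68% of the members against 2.25% of all measured genes. The central 95% of all measured differences ran from -0.82 to 0.74. INHBA and FST lay above that range, and INHBB, ID2 and TGFBR3 below it.

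**Figure D1:**
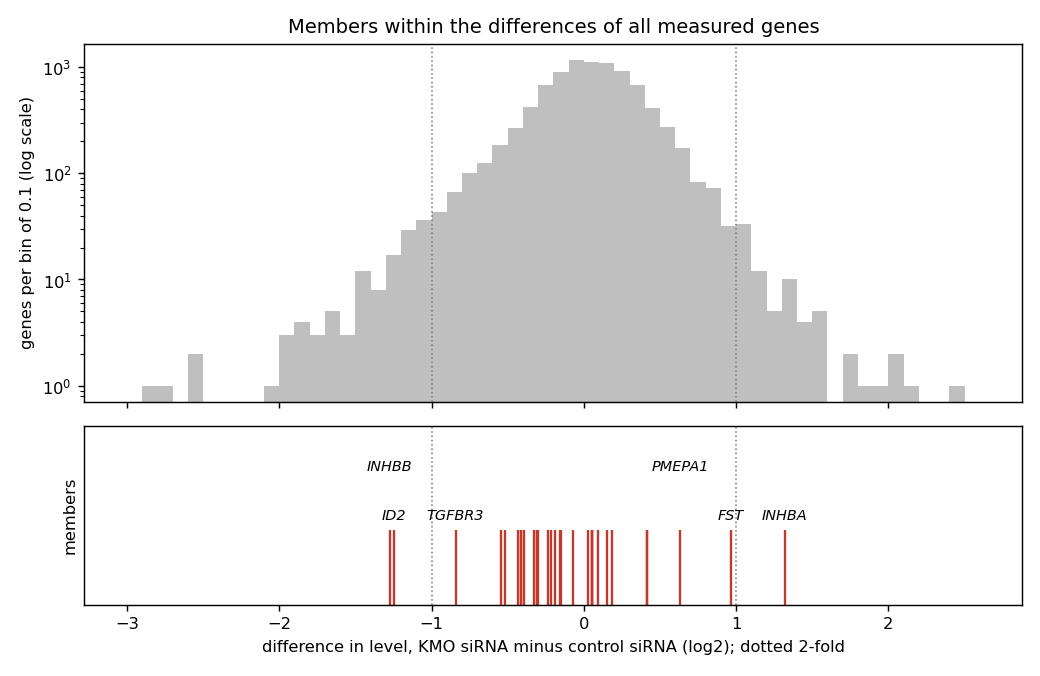
Differences in level between the KMO siRNA and control siRNA arrays (log2). Top, number of genes per bin of 0.1 over the 8997 measured genes on a log scale; bottom, 1 line for each of the 31 measured members, with the names of those past 1.5-fold and dotted lines at 2-fold. INHBA alone lies beyond 2-fold on the higher side, and INHBB and ID2 on the lower side.

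Probe sets of a gene read different stretches of its transcripts, and they check the measurement of the transcript rather than the treatment. Over the 3777 genes with 2 or more measured probe sets, the differences given by the brightest pair of a gene deviated from each other with an SD of 0.22. Among the 14 members with 2 or more, 11 had all of them on the same side of 0, against 72.5% of all such genes. By the deposited values, every measured probe set of 5 members passed 1.5-fold in the same direction, against 5.00% of all such genes: INHBA, FST and PMEPA1 on the higher side (2.54% of all such genes), and TGFBR3 and ID2 on the lower side (2.46%). In PMEPA1 the dimmest of them has a control level under 6 and is shown to differ by at least 1.43-fold only. INHBB had a single probe set and could not be checked in this way. Opposite signs were found in TGFB2, TGFBR1 and SMURF2, whose directions were therefore not settled.

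**Figure D2:**
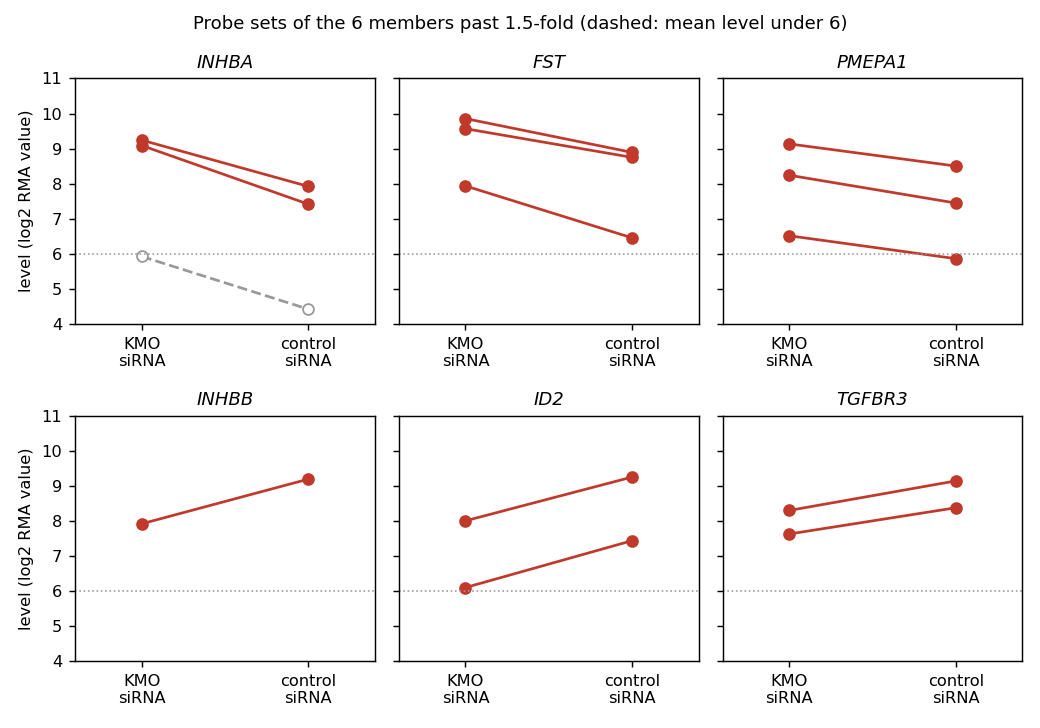
Levels (log2 RMA values) of every probe set of the 6 members past 1.5-fold, with the KMO siRNA array left of the control siRNA array; lines join the values of a probe set, and dashed grey lines mark a mean level under 6. All probe sets of INHBA, FST and PMEPA1 slope the same way, opposite to those of INHBB, ID2 and TGFBR3.

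The activin subunit genes went in opposite directions. INHBA encodes the beta A subunit, a pair of which forms activin A, and INHBB encodes the beta B subunit of activin B. The brightest INHBA probe set stood at 9.24 on the KMO siRNA array and at 7.92 on the control array, a 2.50-fold higher level. The other measured probe set stood at 9.09 against 7.42, 3.19-fold higher, and the remaining one, dim on both arrays, at 5.93 against 4.42. Thus both measured probe sets of INHBA were higher, and by its brightest one the gene ranked 27 from the top among the 8997 measured genes. INHBB stood at 7.92 on the KMO siRNA array and at 9.20 on the control array, a 2.42-fold lower level and rank 49 from the bottom. INHA, the alpha subunit that turns either partner into an inhibin, was at background, at 3.21 on both arrays.

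The TGF-beta ligands differed little. TGFB2 stood at 9.99 on the KMO siRNA array and 10.18 on the control array with its brightest probe set, a difference of -0.19. Its 3 other measured probe sets were higher by 0.16 to 0.25, so its 4 values straddled 0. TGFB1 stood at 6.13 against 6.52 with 1 measured probe set, 1.31-fold lower, and at 4.34 against 4.17 with the dim one. TGFB3 was under 6 with both of its probe sets. Of the BMP ligands, BMP4 stood at 8.35 on the KMO siRNA array and 8.50 on the control array, and BMP2 lay at background, at 3.67 against 3.80.

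FST was higher as well. It encodes follistatin, a secreted protein that wraps around activins and keeps them from their receptors. Its probe sets stood at 9.86, 9.57 and 7.94 on the KMO siRNA array, against 8.89, 8.75 and 6.46 on the control array. All 3 were thus higher, by 1.95-, 1.76- and 2.79-fold in the same order, and the brightest placed the gene at rank 88 from the top. FSTL3, a follistatin relative that also binds activin, did not share this difference. It stood at 6.82 on the KMO siRNA array and 7.12 on the control array, 1.23-fold lower. FSTL1, a distant relative, stood at 10.50 against 10.65.

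The start regions of the 4 members with the largest differences are shown because the related genes INHBA and INHBB differed in opposite directions, with FST on the side of INHBA and ID2 on the side of INHBB. Each sequence is the 250 bases before the RefSeq gene start, 5′ to 3′ on the strand of the gene, from RefSeq on GRCh38.p14: INHBA at chr7:41703091-41703340 (minus strand), FST at chr5:53480379-53480628 (plus), INHBB at chr2:120345886-120346135 (plus) and ID2 at chr2:8681806-8682055 (plus). Capitals mark matches on either strand to CAGAC, the core of the SMAD3 and SMAD4 element, GGCGCC, a GC-rich element of SMAD1 and SMAD5, TGANTCA, the AP-1 element, or TATAAA, the TATA box. No matches overlapped.
INHBA: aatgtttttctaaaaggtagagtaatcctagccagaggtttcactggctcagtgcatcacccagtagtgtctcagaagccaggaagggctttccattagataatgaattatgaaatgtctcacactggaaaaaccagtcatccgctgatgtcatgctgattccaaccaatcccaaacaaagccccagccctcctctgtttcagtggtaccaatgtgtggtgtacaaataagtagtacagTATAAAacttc
FST: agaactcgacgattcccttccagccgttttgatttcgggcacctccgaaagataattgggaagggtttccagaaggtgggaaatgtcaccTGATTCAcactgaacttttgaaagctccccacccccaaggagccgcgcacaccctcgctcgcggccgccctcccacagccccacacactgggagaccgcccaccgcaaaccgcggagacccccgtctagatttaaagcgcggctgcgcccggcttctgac
INHBB: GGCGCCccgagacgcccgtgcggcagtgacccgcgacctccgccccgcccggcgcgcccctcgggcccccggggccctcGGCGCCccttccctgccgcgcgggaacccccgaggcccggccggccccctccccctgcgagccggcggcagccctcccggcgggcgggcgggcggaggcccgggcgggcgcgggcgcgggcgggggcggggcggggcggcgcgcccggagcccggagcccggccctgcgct
ID2: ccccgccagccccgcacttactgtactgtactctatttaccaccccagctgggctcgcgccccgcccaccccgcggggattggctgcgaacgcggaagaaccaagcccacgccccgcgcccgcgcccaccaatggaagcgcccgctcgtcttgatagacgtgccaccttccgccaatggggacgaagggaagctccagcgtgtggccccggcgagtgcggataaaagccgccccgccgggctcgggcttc
The INHBA and INHBB windows differ widely in base composition. G and C make up 42.8% of the INHBA window and 89.6% of the INHBB window, with 60.0% for FST and 69.2% for ID2, where the median over 35116 such windows of all genes was 58.0%. Only 8 of those windows exceeded that of INHBB. The INHBA window holds a TATAAA that begins 11 bases before the annotated start, a motif found in 10.7% of all windows. It is a match of letters only, and whether it serves as a TATA box for that start was not tested. FST holds TGATTCA that begins 160 bases before the start (6.57% of all windows hold TGANTCA), and INHBB holds GGCGCC at 250 and 171 bases before it (16.4%). That share is over windows of any base composition, and windows as rich in G and C as that of INHBB were not counted apart. CAGAC, found in 38.0% of all windows, is not among the letters of these 4 windows, and ID2 holds none of the 4 motifs. Windows were found for 41 of the 44 genes, 81 windows in all with several starts for some genes, and 39.5% of these held CAGAC, 22.2% GGCGCC, 6.17% TGANTCA and 12.3% TATAAA. Whether base composition or any of these motifs bears on the directions of difference was not tested.

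Antagonists of BMPs and the latent TGF-beta binding proteins were level or somewhat lower. NOG, which encodes the BMP antagonist noggin, stood at 9.07 on the KMO siRNA array and 9.40 on the control array, 1.26-fold lower. GREM1, another BMP antagonist, was at background, at 1.63 on both arrays. LTBP1, which anchors latent TGF-beta in the matrix, stood at 8.02 against 7.97 and was higher by 0.06 with that probe set and, with the control level of 5.99 taken as 6, by at least 0.30 with the other. LTBP3, which does the same, stood at 6.29 against 6.71, 1.33-fold lower, and LTBP2 was under 6 with both probe sets. Over the 6 measured antagonists and binding proteins, 2 were higher and 4 lower, with a median of -0.22, and FST was the only one of the 6 past 1.5-fold.

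**Figure D3:**
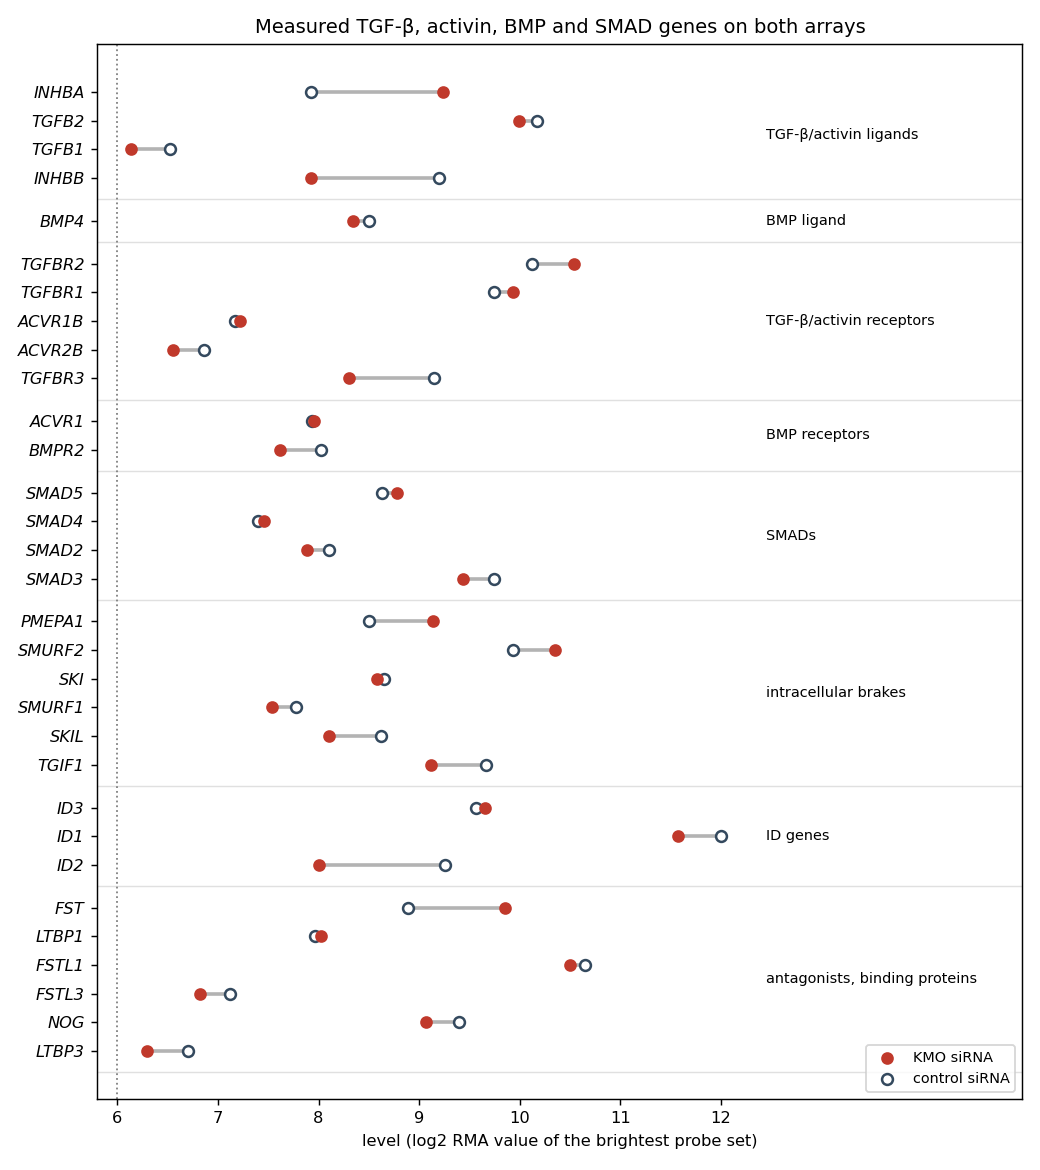
Levels of the 31 measured members on the KMO siRNA array (filled) and the control siRNA array (open), as log2 RMA values of the brightest probe set, grouped by role; the dotted line marks the minimum mean level of 6. The widest gaps belong to INHBA, INHBB, ID2, FST and TGFBR3.

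Receptors of the TGF-beta branch differed in both directions. TGFBR3 encodes betaglycan, a co-receptor that presents TGF-beta to the type II receptor and binds inhibin. It stood at 8.30 and 7.63 on the KMO siRNA array, against 9.14 and 8.38 on the control array, with its 2 probe sets. Both were lower, by 1.79- and 1.68-fold, and the gene ranked 205 from the bottom. TGFBR2, the type II receptor that binds TGF-beta itself, went the other way. It stood at 10.54 and 6.91 on the KMO siRNA array, against 10.13 and 6.37 on the control array, 1.33- and 1.45-fold higher. TGFBR1, the type I kinase, was higher by 0.18 with its brightest probe set (9.93 against 9.75) and differed by -0.08 with the other measured one. ENG, the endoglin co-receptor best known from endothelium, was under 6.

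Activin and BMP receptors differed by less than 1.5-fold. The activin type I receptor ACVR1B stood at 7.22 on the KMO siRNA array and 7.17 on the control array. Of the type II receptors, ACVR2B stood at 6.55 against 6.86 with its 1 measured probe set, 1.24-fold lower, and ACVR2A was under 6 at 5.67 against 5.76. BMPR2, the BMP type II receptor, had 2 measured probe sets, both lower. They stood at 7.61 and 6.76 on the KMO siRNA array and at 8.03 and 7.20 on the control array, 1.33- and 1.36-fold lower, and 4 further probe sets were under 6 on both arrays. ACVR1, a type I receptor of BMPs, differed by 0.03, and BMPR1B was at background with a brightest level of 2.68 on both arrays.

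The SMADs of the TGF-beta branch, SMAD2 and SMAD3, were lower with each measured probe set, and SMAD5 was higher with each. SMAD3 stood at 9.44 on the KMO siRNA array and 9.74 on the control array, and its 4 probe sets differed by -0.43 to -0.09. SMAD2 stood at 7.89 against 8.10, and its 4 measured probe sets differed by -0.37 to -0.20. All 8 of these were lower, each by less than 1.5-fold. SMAD5, the only measured SMAD of the BMP branch, stood at 8.78 against 8.63 and was higher with all 5 of its probe sets, by 0.08 to 0.68. The size depended on the probe set: the brightest pair gave 0.15 and 0.08, and the dimmest pair 0.62 and, with the control level of 5.92 taken as 6, at least 0.60. The brightest probe sets of SMAD2 and SMAD5 differed by less than the SD of 0.22 given above for probe sets of a gene. SMAD1 lay just under the minimum, at 6.29 and 6.31 on the KMO siRNA array against 5.70 and 5.38 on the control array with its brighter probe sets. With 6 in place of the control levels these were higher by at least 0.29 and 0.31. SMAD9, also of the BMP branch, was under 6 on both arrays, at 5.66 against 5.97, and the shared partner SMAD4 stood at 7.45 against 7.40.

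**Figure D4:**
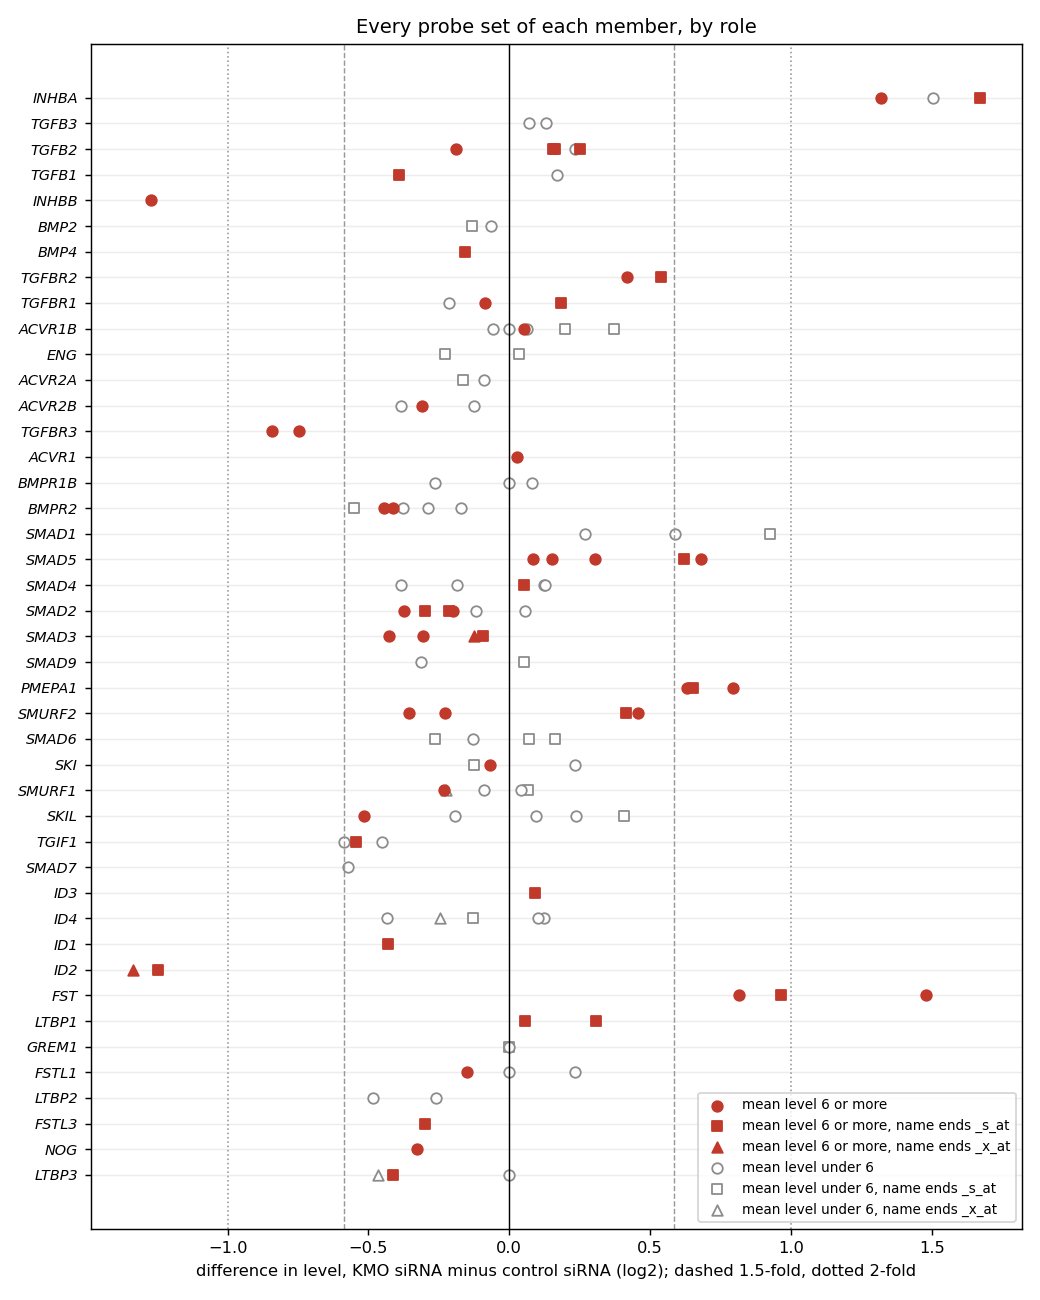
Difference in level, KMO siRNA minus control siRNA (log2), of each of the 125 probe sets of the 43 members, grouped by role; filled symbols have a mean level of 6 or more, squares and triangles mark names ending in _s_at and _x_at, and dashed and dotted lines mark 1.5-fold and 2-fold. The probe sets of SMAD5 all lie above 0 and those of SMAD3 all below it, whereas those of SMURF2 lie on both sides.

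Among the genes that dampen the signal inside the cell, PMEPA1 was higher, and the co-repressors TGIF1 and SKIL were lower. PMEPA1 is a TGF-beta-induced membrane protein that holds SMAD2 and SMAD3 away from the receptor. It stood at 9.13, 8.24 and 6.52 on the KMO siRNA array, against 8.50, 7.45 and 5.86 on the control array. All 3 probe sets were higher, by 1.55- and 1.73-fold and, for the dimmest with its control level taken as 6, at least 1.43-fold. Among the co-repressors, TGIF1, a homeodomain protein, stood at 9.12 against 9.66, 1.46-fold lower with its 1 measured probe set. SKIL, also called SnoN, stood at 8.10 against 8.62, 1.43-fold lower with its 1 measured probe set. SKI, its relative, differed by -0.07.

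The remaining brakes had no settled difference. SMURF2, a ubiquitin ligase that marks receptors and SMADs for degradation, was higher by 0.42 and 0.46 with 2 of its measured probe sets and lower with the other 2, at -0.36 and -0.23. SMURF1, of the same family, stood at 7.54 on the KMO siRNA array and 7.77 on the control array. The inhibitory SMAD7, a direct target of the pathway, was under 6 on both arrays, at 5.21 against 5.78, and SMAD6 stood at 5.97 against 5.90, so neither gave a usable fold. Over the 6 measured brakes the median was -0.15, with 2 higher and 4 lower.

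Of the ID genes, ID2 alone passed 1.5-fold. The ID proteins are helix-loop-helix factors without a DNA-binding region that block their partners, and ID1, ID2 and ID3 are known targets of BMP signalling. ID2 stood at 8.01 and 6.11 on the KMO siRNA array, against 9.25 and 7.44 on the control array, with probe sets ending in _s_at and _x_at. Both were lower, by 2.37- and 2.52-fold, and the gene ranked 51 from the bottom. A further probe set listed for ID2 together with a second gene was left out. ID1 stood at 11.57 against 12.00, 1.35-fold lower. ID3 stood at 9.65 on the KMO siRNA array and 9.56 on the control array, and ID4 was at background, at 3.58 against 3.82 with the brightest of 5 probe sets. The 3 measured ID genes therefore ran from -1.25 to 0.09 with no direction in common.

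Genes known to respond to TGF-beta or BMP showed no common direction. The list held 41 genes, of which 38 had a probe set and 25 were measured. Genes without a probe set were not analysed here, and the rest had mean levels under 6. Of the 25 measured genes, 11 were higher and 14 lower on the KMO siRNA array, with a median of -0.06. At 1.5-fold 3 were higher and 8 lower, 12.0% and 32.0% of the 25, against 5.19% and 5.41% of all measured genes. The counts depended on which genes kept a measured probe set: without those named _x_at or _s_at, 4 were higher and 2 lower at 1.5-fold, with a median of 0.11. VEGFA, BHLHE40, LOX, CDKN1A, KLF10, GADD45B and FN1 have no other measured probe set and dropped out there. IL11 and JUNB stayed lower and SNAI2 and ADAM19 higher, and THBS1 passed 1.5-fold higher with another probe set. COL7A1 was counted as higher there by its deposited values only, at 6.47 on the KMO siRNA array against 5.72. With that control level taken as 6 it was higher by at least 1.38-fold, short of 1.5-fold. With all probe sets kept, the higher ones were the matrix protein FN1 (10.99 against 9.40), the transcription factor SNAI2 (8.47 against 7.78) and the membrane protease ADAM19 (7.18 against 6.58). The lower ones were VEGFA, IL11, BHLHE40, JUNB, LOX, CDKN1A, KLF10 and GADD45B, which differed by -1.18 to -0.62 with their brightest probe sets. Further measured probe sets were lower by less than 1.5-fold in LOX (-0.31), IL11 (-0.42), BHLHE40 (-0.53) and GADD45B (-0.55 and -0.49). The 4 of VEGFA differed by -1.26 to -1.07, and JUNB, CDKN1A and KLF10 had 1 measured probe set each. Several of these answer to other signals as well, among them hypoxia for VEGFA, BHLHE40 and LOX and stress for CDKN1A and GADD45B. KLF10, a zinc finger factor also called TIEG for its early induction by TGF-beta, stood at 9.08 on the KMO siRNA array and 9.78 on the control array, 1.62-fold lower. The classical targets CCN2 and CCN1 differed by -0.06 and -0.04, and TGFBI by 0.42.

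THBS1, which encodes thrombospondin-1, a matrix protein that can release TGF-beta from its latent form, gave values that depended on the probe set. Its brightest probe sets stood at 11.13, 10.98 and 10.34 on the KMO siRNA array and at 10.81, 10.33 and 9.64 on the control array, 1.25-, 1.56- and 1.63-fold higher. A further one stood at 8.75 against 6.21, 5.82-fold higher, and another at 8.56 against 4.82, at least 5.91-fold higher with the control level taken as 6. All 5 measured probe sets of THBS1 were higher, but the size of its difference ran from 0.32 to 3.74 on the log2 scale as deposited. THBS1 was named after its values were seen.

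Further components of the pathway were balanced. Of 79 listed ligands, receptors, cofactors and modifiers, 73 had a probe set and 36 were measured, 18 higher and 18 lower, with a median of -0.01. At 1.5-fold 2 were higher and 2 lower, 5.56% in each direction, close to the 5.19% and 5.41% of all measured genes. GDF15, a distant, stress-induced ligand, stood at 7.35 on the KMO siRNA array and 8.65 on the control array, 2.45-fold lower with its 1 measured probe set, which ends in _x_at. RBL1, the pocket protein p107, which can work with SMAD3 on target genes, stood at 7.19 against 6.18, 2.00-fold higher, and the deubiquitinase USP11 at 8.80 against 8.18. VASN, a membrane protein that traps TGF-beta, stood at 6.50 against 7.17. BAMBI, a pseudoreceptor that dampens the signal, differed by 0.15, and most other ligands lay under 6, such as BMP6 at 4.79 against 4.73 and GDF11 at 5.64 against 5.17.

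**Figure D5:**
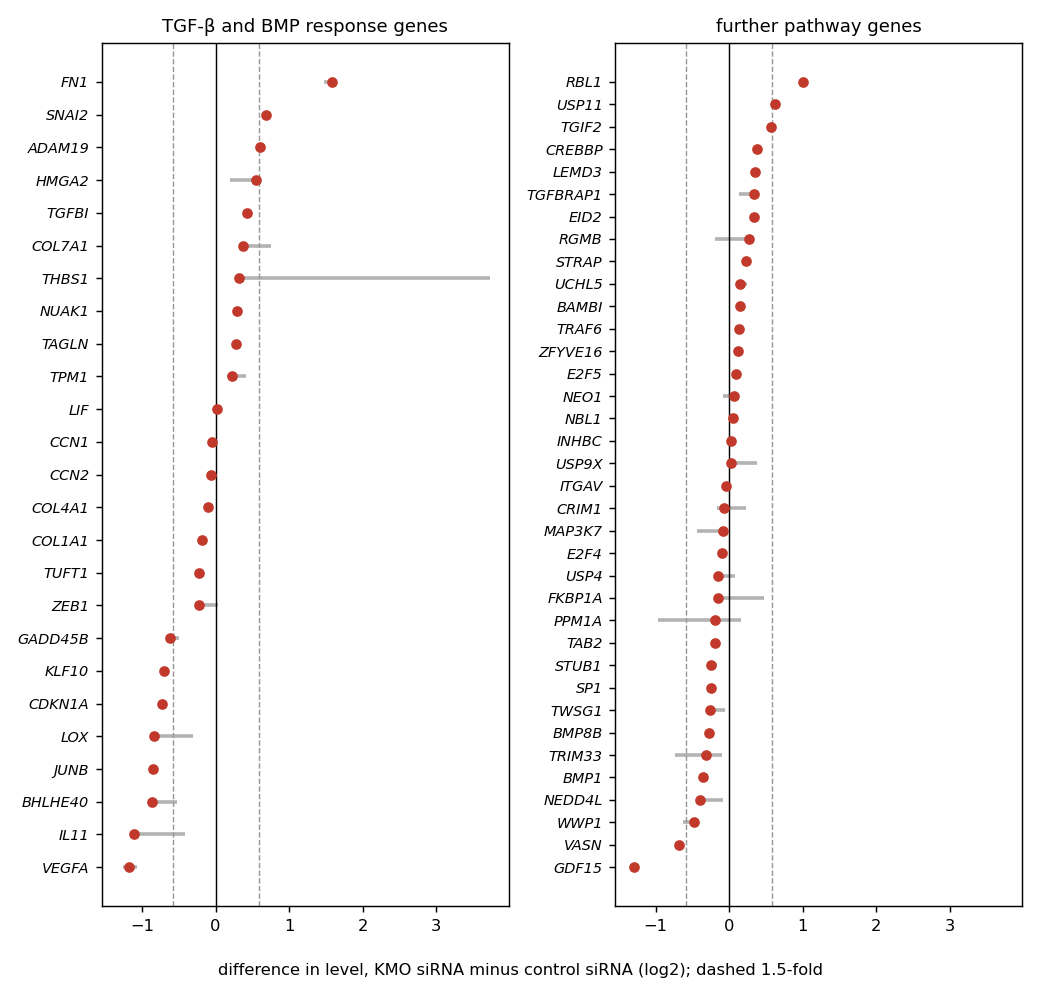
Differences in level, KMO siRNA minus control siRNA (log2), of the measured genes among 41 TGF-beta and BMP response genes (left) and 79 further pathway genes (right); points show the brightest probe set, grey bars the range over measured probe sets as deposited, and dashed lines 1.5-fold. FN1 is the highest and VEGFA the lowest on the left, RBL1 the highest and GDF15 the lowest on the right, and the bar of THBS1 reaches 3.74.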

How the data were processed

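RNA of 2 MDA-MB-231 cultures was hybridised to Affymetrix U133 Plus 2.0 arrays, 1 per group. The deposited values are log2 levels that the authors made by robust multi-array averaging, per the labels; Affymetrix Expression Console is named in the submitters' processing notes, and its version is not given in the sources used here. This method evens out the distributions of the arrays (medians 4.43 for KMO siRNA and 4.44 for control siRNA), so a shift shared by all transcripts cannot be seen, and it gives no detection call, so dim genes sit at a background level with compressed differences. The number of arrays limits the precision.

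Of 54675 probe sets, 41097 were annotated to 1 gene, 1801 to several and 11777 to none; the 1801 named no gene. Symbols were updated by gene identifier against RefSeq (GRCh38.p14), with 41043 matched. A gene took its probe set with the highest mean, and counted as measured at a mean of at least 6. Where 1 array lay under 6, folds are lower bounds with that level taken as 6. Differences are KMO siRNA minus control siRNA, counted at 1.5- and 2-fold with pandas 2.3.3 in Python 3.11.15. No test was made. The calculation was tested on simulated data at 2-fold only, which checks the counting and not the differences between these arrays. All members could be named; of the other lists, genes past 1.5-fold or the 3 largest differences, and any others were picked with their values in view. The members and lists were chosen with earlier results of these data known. Alternatives were the mean of all probe sets, leaving out _x_at and _s_at probe sets, no minimum or 7, levels under 6 set to 6, and centring.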

Additional observations from a re-analysis of the deposited data

How the results depend on the processing

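Under the 6 alternatives, all 3 members past 1.5-fold on the higher side (INHBA, FST and PMEPA1) stayed there in each, and of INHBB, ID2 and TGFBR3 all 3 stayed in each except when _x_at and _s_at probe sets were left out, where 2 did, because ID2 has no other probe set. That setting left 21 members measured, and 1 member at least 2-fold lower; averaging the probe sets of a gene left 22 measured, and 2 were at least 2-fold higher. The median of the TGF-beta and activin ligands was 0.12 with averaged probe sets, against -0.29; this is the value of TGFB2, with TGFB1 then under the minimum. The median of all measured members ran from -0.23 to -0.01.

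Among response genes, averaging gave 2 higher and 1 lower by 2-fold or more. Leaving out _x_at and _s_at probe sets gave 1 lower by 2-fold and, at 1.5-fold, 4 higher and 2 lower, with a median of 0.11 against -0.06. COL7A1 is among these 4 by its deposited values only. In that setting VEGFA, BHLHE40, LOX, CDKN1A, KLF10, GADD45B and FN1 had no measured probe set left. Among further pathway genes, averaging gave 0 at 2-fold in either direction and 1 at 1.5-fold in each. A minimum of 7 gave 0 at least 2-fold higher and 1 at 1.5-fold in each direction, because RBL1 and VASN had means under 7. Centring gave 0 higher by 2-fold and 1 by 1.5-fold. No minimum level gave 2 at least 2-fold lower, with the dim LEFTY1 added at 3.58 on the KMO siRNA array against 4.73. Leaving out _x_at and _s_at probe sets gave 0, because GDF15 has no other measured probe set. The causes of the other shifts were not tested. Of 163 values of single members under these alternatives, 4 moved by over 0.22, in TGFB2, TGFBR1 and SMURF2. No paired analysis was possible because each group has 1 array.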
